A study of Mus musculus with 1012 samples.

Results

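The cells described are primary adipose stem and progenitor cells (ASPCs) of the mouse that had received no adipogenic treatment and were lysed whole for single-cell RNA-seq, the state called ASPC_Pre. They were chosen by their labels alone, as the scRNA-seq ASPC libraries without treatment, and number 60 of the 1012 libraries of the series, with 16 cells in batch 8_8 and 44 in batch 9_1. The study developed Live-seq, which samples cytoplasm from living cells, and used whole cells of the same types as a reference. Per its methods, the ASPCs were isolated from subcutaneous fat of female C57BL/6J mice aged 7 to 10 weeks, grown in high-glucose medium with serum below confluence, trypsinized, sorted as live single cells and processed by Smart-seq2, so that each library is 1 cell. No source used here says how many mice contributed or how often the cells had been passaged. The cells compared with them were IBA cells, an immortalized brown preadipocyte line from the stromal fraction of interscapular brown fat of young male C57BL6/J mice, with 15, 45 and 93 cells in batches 8_8, 9_1 and scRNA, and, for context, 35 ASPC_Post cells of batch 9_1 after 2 days of an adipogenic cocktail of dexamethasone, IBMX, insulin and rosiglitazone. RAW-G9 cells, a clone of the RAW264.7 macrophage line that carries a Tnf-promoter mCherry reporter and an EGFP fusion of Rela, were present untreated (RAW_Mock, 16, 46 and 95 cells in the same batches) and treated with lipopolysaccharide (RAW_LPS, 15, 46 and 88 cells).

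Adipose stem and progenitor cells are fibroblast-like cells of the stromal part of fat, which lie between adipocytes and along vessels, secrete extracellular matrix and can become adipocytes. In subcutaneous fat they are commonly divided into a Dpp4-type pool of early progenitors that lies in connective tissue, an Icam1-type pool of committed preadipocytes, and a CD142-type pool marked by F3 that has been described as restraining adipogenesis. Cultured on plastic, such cells commonly acquire stress fibres and genes of the contractile apparatus.

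The 16 cells of batch 8_8 held 137125 to 589191 counts (median 345074) and the 44 of batch 9_1 held 397324 to 2000873 (median 796342), with a median of 7949 and 9611.5 genes detected. In 10 of the 44 cells of batch 9_1, over 50% of the counts fell in the negative-control and ribosomal protein genes that the study leaves out, at most 85.5%. Levels are given as CPM, the usual scaling of counts to a fixed total, taken here over the remaining genes. CPM is not corrected for gene length, so levels are not compared between genes. No pair of ASPC_Pre libraries was identical.

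Part of the label checks went against the stated origin, and this precedes all results. Counts of the Y-linked genes Ddx3y, Eif2s3y, Uty or Kdm5d were found in 8 of 16 ASPC_Pre cells of batch 8_8 and in 35 of 44 of batch 9_1, although the methods name female mice. With at least 10 counts required, batch 8_8 held 6 cells with Y-linked genes alone, 3 with Xist alone, 1 with both and 6 with neither, and batch 9_1 held 24, 1, 1 and 18. The summed level of Xist, the non-coding RNA that silences an X chromosome in female cells, was 102.3 CPM in batch 8_8 and 3.74 in 9_1. EGFP, listed as a feature of the count table, had counts in 0 of 16 cells of batch 8_8 and in 37 of 44 of batch 9_1, where the median cell held 58 counts and the highest 1438. It was also counted in 27 of 35 ASPC_Post cells and in 1 IBA cell, there with 1 count. mCherry, which RAW-G9 cells carry beside EGFP, had counts in 0 of 44 ASPC_Pre cells of batch 9_1 and in 32 of 46 RAW_Mock cells of that batch. The methods describe a lentiviral GFP barcode library put into ASPCs for sequential sampling, while the labels of these 60 cells name no transgene. Which animals the cells of each sex came from, and the source of the EGFP counts, were not tested.

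Levels of 5 marker genes are described next, and the plot of markers by cell shows all values. These genes were chosen with earlier results of these data known. Their levels and calls are therefore no independent check of the label. Mfap5 (GRCm38 chr6:122505845-122529290), which encodes a microfibril-associated glycoprotein, was counted in 15 of 16 cells of batch 8_8 and in 44 of 44 of batch 9_1. Its level ran from 0 through a median of 228.03 to 808.1 CPM in batch 8_8, and from 72.3 through 539.2 to 1918 in batch 9_1. Only 14 counts of it were found over all IBA cells. Cck (chr9:121489824-121495694), the gene of the peptide hormone cholecystokinin, was counted in 14 of 16 and 43 of 44 cells. It ranged from 0 to 2071 CPM (median 468.5) in batch 8_8 and from 0 to 22599.8 CPM (median 2654) in batch 9_1, and IBA held 2 counts. Both genes were thus found in nearly all ASPC_Pre cells, Cck at very unequal levels. They were also counted in ASPC_Post cells of batch 9_1, at up to 1643.43 CPM for Mfap5 and 7653.09 for Cck. Summed over the 5 markers, the median was 1543.21 CPM over those cells, against 905.97 in ASPC_Pre of batch 8_8 and 3879.29 in 9_1. Counts of Mfap5 and Cck are thus not confined to the untreated state.

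The remaining markers were less uniform. Tnfrsf11b (chr15:54250619-54278484), which encodes osteoprotegerin, a decoy receptor of RANKL, was counted in 2 of 16 cells of batch 8_8 and 23 of 44 of batch 9_1, with a highest cell of 110.5 and 148.4 CPM. After every cell had been thinned to 100000 counts, these shares were 6.67% (exact binomial 95% interval 0.169 to 31.9) and 46.5% (31.2 to 62.3). Intervals of this kind reflect counting error alone, and because these reads carry no molecular identifiers, they are not counts of separate molecules. Actg2 (chr6:83512905-83536265), the smooth muscle gamma actin, was counted in 8 of 16 and 26 of 44 cells, from 0 through a median of 3.13 to 583.02 CPM in batch 8_8 and through 2.72 to 1392 in 9_1. Its thinned share, 46.7% in batch 8_8 and 48.8% in batch 9_1, was close in both batches. Pdgfra (chr5:75152292-75198215), the platelet-derived growth factor receptor that defines fibroblast-like progenitors, was counted in 14 of 16 cells (median 178.2 CPM, highest 719.3) and 37 of 44 cells (median 46.1, highest 553.3).

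**Figure D1:**
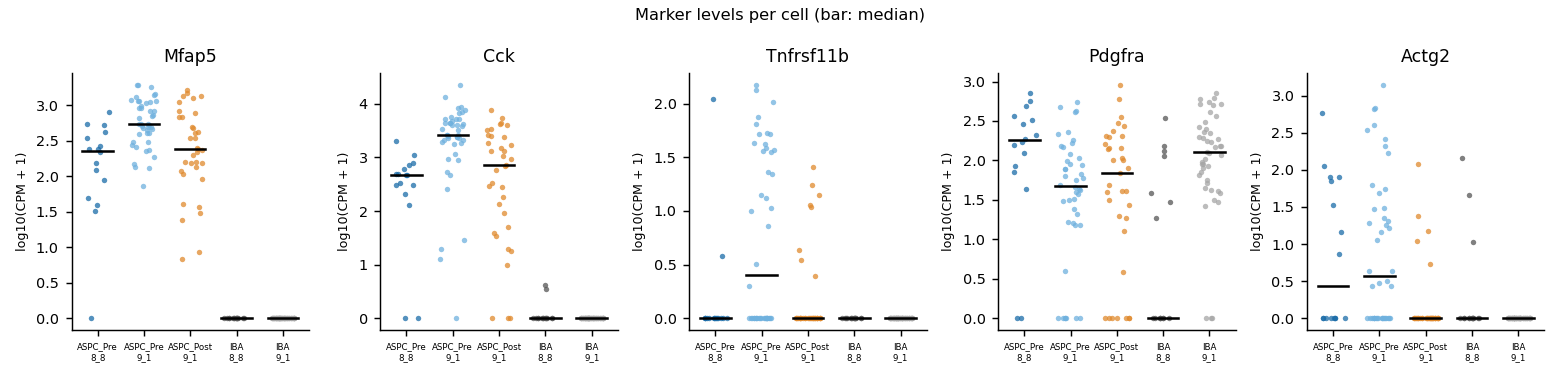
Level of Mfap5, Cck, Tnfrsf11b, Pdgfra and Actg2 in each whole cell as log10(CPM + 1), with a point for each cell of ASPC_Pre (batches 8_8 and 9_1), ASPC_Post (9_1) and IBA (8_8 and 9_1) and a bar at the median. Mfap5 lies above 0 in 15 of 16 and 44 of 44 ASPC_Pre cells, and Pdgfra is found in IBA cells as well as in ASPC_Pre cells.

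To ask which genes set these primary progenitors apart from an immortalized brown preadipocyte line, counts were summed per batch and state and tested with edgeR's quasi-likelihood test with batch in the model, over 13564 genes. A call needed a Benjamini-Hochberg adjusted p under 0.05, a log2 fold change over 1, and 2 or more counts in 15% or more of ASPC_Pre or IBA cells. In ASPC_Pre 1463 genes were called (10.8% of those tested), 7.21% higher and 3.58% lower. The median log2 fold change of all genes was 0.12. Mfap5 (adjusted p = 0.0031), Cck (0.0080) and Tnfrsf11b (0.035) were called higher. Actg2 (0.12) and Pdgfra (log2 fold change 1.09 ± 0.91 SE, adjusted p = 0.48) were not, and Pdgfra stood at 289.8 and 100.5 CPM in the 2 ASPC_Pre sums against 49.7, 189.01 and 117 in IBA batches 8_8, 9_1 and scRNA. The calls depended on both ASPC_Pre batches. Nearly all were lost without batch 9_1 and a part without batch 8_8, fits that leave 1 ASPC_Pre sum. Without batch scRNA, which holds no ASPCs, 3.12% of the 13564 were called. Tnfrsf11b had an adjusted p of 0.057 without the ASPCs that held Y-linked counts, and the number of calls was then 1207, of which 55.9% were higher, against 66.8% of the 1463. That fit left out 8 of 16 ASPC_Pre cells of batch 8_8 and 35 of 44 of batch 9_1. The fit without ASPCs holding EGFP, used below, left out 37 of 44 of batch 9_1. In both fits, having fewer cells per sum and the kind of cell left out cannot be told apart. The sums of a state come from separate batches, but nothing says that they come from separate animals, and the p-values measure the spread between these sums.

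Beside Mfap5 and Cck, the 8 genes with the largest fitted differences in favour of ASPC_Pre were Car8, Plxdc2, Rps4l, Thy1, Cxcl12, Adgrd1, Aldh1a1 and Prelp, taken among called genes with at least 50 CPM in both sums. Car8, a carbonic anhydrase-related protein, stood at 67.5 CPM in batch 8_8 and 117 in 9_1 and had no count in any IBA cell, so that it was at least 2513-fold higher (adjusted p = 0.0043, floor of 3 counts over the state). Thy1, the surface glycoprotein CD90 used to recognise mesenchymal stromal cells, was at 105.9 and 193.6 CPM against 2 counts in all IBA cells (adjusted p = 0.00075). Every one of the 44 cells of batch 9_1 and 14 of the 16 of batch 8_8 held Thy1. Cxcl12, a stromal chemokine, was at 95.9 and 266.04 CPM against at most 0.899 in an IBA sum (adjusted p = 0.0083). Aldh1a1, which makes retinoic acid from retinaldehyde, was at 68.3 and 201.4 CPM against at most 2.36 (adjusted p = 0.0022). Prelp, a leucine-rich proteoglycan that anchors basement membranes, was at 55.9 and 736.1 CPM against 0, 0.540 and 5.55 in IBA (adjusted p = 0.0010), a ratio of 1363 within batch 9_1. These genes were thus near or at 0 in every IBA sum. Plxdc2 (71.2 and 153.05 CPM) and Adgrd1 (69.5 and 65.7 CPM), a membrane protein with a plexin domain and an adhesion G-protein-coupled receptor, showed the same. Rps4l (130.2 and 85.0 CPM) is annotated as a processed pseudogene of a ribosomal protein gene, and its counts are uncertain where reads could be shared with its parent.

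**Figure D2:**
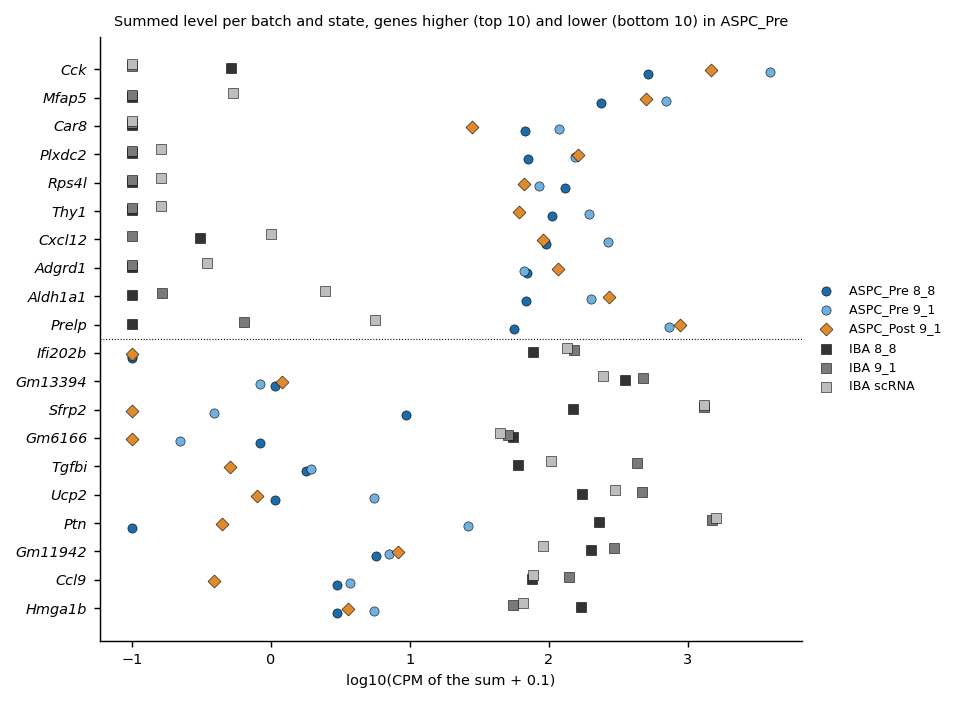
Levels in sums of cells, as log10(CPM + 0.1), of the 10 genes most above and the 10 most below IBA in ASPC_Pre, with a point for each of 6 sums (ASPC_Pre 8_8 and 9_1, ASPC_Post 9_1, IBA 8_8, 9_1 and scRNA). For each gene the ASPC_Pre sums lie apart from the 3 IBA sums, and Ifi202b is at 0 in both ASPC_Pre sums.

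In the other direction, the 10 genes by the same rule were Ifi202b, Gm13394, Sfrp2, Gm6166, Tgfbi, Ucp2, Ptn, Gm11942, Ccl9 and Hmga1b. Sfrp2, a secreted Wnt modulator, was at 9.23 and 0.288 CPM in ASPC_Pre against 148.4, 1309.9 and 1311 in IBA (log2 fold change -7.69 ± 1.83, adjusted p = 0.031). Ptn, the heparin-binding growth factor pleiotrophin, was at 0 and 26.3 CPM against 229.2, 1493 and 1584 (adjusted p = 0.0052). Tgfbi, a matrix protein induced by TGF-beta, was at 1.70 and 1.85 CPM against 59.5 to 429.96 (-6.59 ± 1.11, adjusted p = 0.0097). Both ASPC_Pre sums lay below all 3 IBA sums for each of these. Ucp2, a mitochondrial carrier, differed by -6.20 ± 0.58 (adjusted p = 0.0010) and the chemokine Ccl9 by -4.47 ± 0.54 (0.0031). Ifi202b, an interferon-inducible gene, had no count in any ASPC_Pre cell and 76.6, 151.9 and 134 CPM in IBA (at least 1312-fold, adjusted p = 0.034, and 0.056 without ASPCs holding Y-linked counts). Gm13394, Gm6166, Gm11942 and Hmga1b have near-identical copies or are predicted genes, and Ifi202b belongs to a family of close paralogs, so that their counts are uncertain.

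The contractile list was higher than in IBA in 9 of its 15 tested genes (7.21% of all genes tested were called higher). How much a member varied between cells differed, with a coefficient of variation in batch 8_8 of 0.301 for Tpm1, 0.659 for Acta2 and 2.03 for Cnn1. Called higher were Acta2 (smooth muscle alpha actin, 3.54 ± 0.79, adjusted p = 0.025), Tagln (4.87 ± 1.27, 0.041), Myl9 (3.84 ± 0.77, 0.019), Tpm1 (1.28 ± 0.23, 0.013), Tpm2 (2.25 ± 0.58, 0.040), Vcl (1.71 ± 0.25, 0.0054), Ccn2 (2.54 ± 0.51, 0.041), Thbs1 (4.57 ± 0.89, 0.017) and Lmod1. These encode actin, its myosin light chain, tropomyosins and actin-binding proteins, the focal adhesion protein vinculin, and the matricellular proteins CCN2 and thrombospondin-1. All 15 fitted above 0, with a median of 3.29. The count was 9 without cells holding Y-linked counts, 7 without cells holding EGFP (Tagln and Tpm2 then had an adjusted p of 0.082 and 0.069), 5 with DESeq2 and 1 without batch 9_1. In sums, Acta2 (chr19:34241090-34255590) stood at 6871 and 3907 CPM in ASPC_Pre, at 492.5, 243.4 and 2329 in IBA and at 283.6 in ASPC_Post. Markers that separate smooth muscle and mural cells from contractile fibroblasts were scarce: Myh11, the smooth muscle myosin, was counted in 0 of 16 and 8 of 44 cells, with 90.1% of its summed level in 1 cell, and Rgs5 in 0 and 3 cells.

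Within a batch, Acta2 ran from 467.6 through a median of 6218 to 16045 CPM over the 16 cells of 8_8 and from 69.3 through 2459 to 16708 over the 44 cells of 9_1. Its level followed that of some other contractile genes across cells. In batch 9_1 Spearman's rho with Acta2 was 0.82 for Myl9, 0.79 for Tpm2, 0.79 for Cnn1, 0.73 for Tagln and 0.72 for Tpm1, and 0.81, 0.78, 0.81, 0.65 and 0.66 in cells thinned to equal depth. In batch 8_8 it was 0.79 for Myl9, 0.82 for Tpm1 and 0.47 for Tagln, but 0.34 for Tpm2 and 0.12 for Cnn1. The called genes Thbs1 (-0.14 and 0.09) and Vcl (0.07 and 0.12) did not follow Acta2 in batch 9_1 or 8_8. Neither did Ccn2 (-0.33 and 0.29), Ccn1 (-0.12 and 0.11) or Des (-0.02 and -0.40). In batch 9_1 Cck ran the other way, with rho of -0.53 in batch 9_1 (-0.49 thinned) and -0.27 in 8_8, and against Tagln it was -0.61 (-0.54 thinned) and -0.04. In batch 8_8 Cck was at 0.63 with Cnn1, 0.02 with Tpm1, 0.09 with Tpm2 and -0.05 with Myl9, so that for these genes the sign was not shared by both batches or the value was near 0. Aldh1a1 was at -0.49 with Acta2 in batch 9_1 but at 0.27 in 8_8. These values describe 44 and 16 cells that share a batch, and they carry no test. Acta2 was nearly unrelated to the kept counts of a cell (-0.16 in 9_1 and 0.02 in 8_8), but Tpm2 was less so (-0.27 and -0.43). With the number of genes detected, Acta2 was at -0.21 and 0.16, Tpm2 at -0.33 and -0.29 and Tagln at -0.32 and -0.25. Myl9 was at -0.08 and 0.25, Tpm1 at -0.10 and 0.23, Cnn1 at -0.11 and 0.22, and Cck at 0.24 and 0.19. The part of this in the correlations above was not tested.

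**Figure D3:**
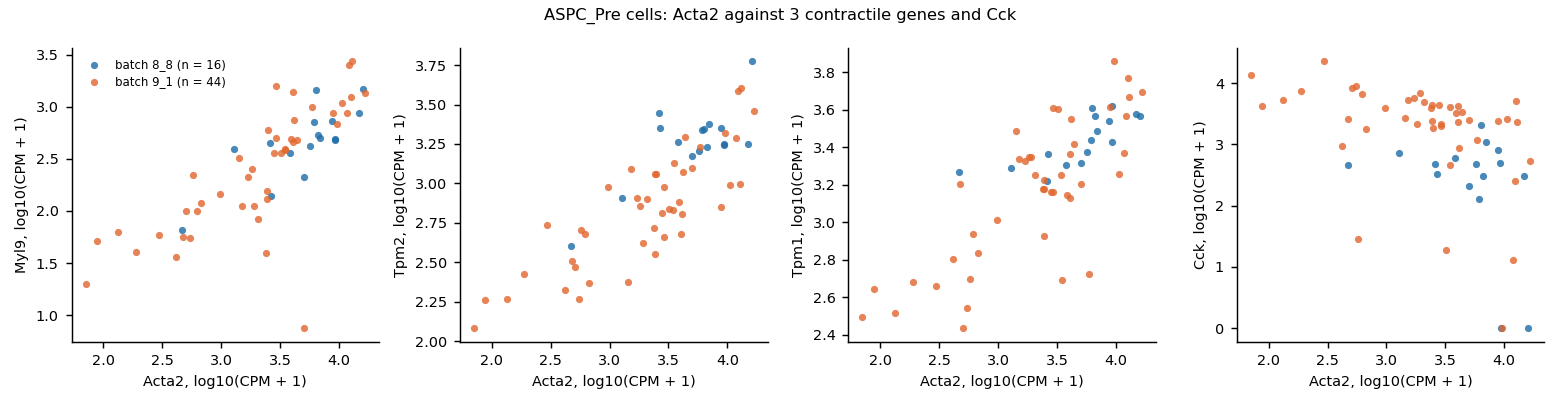
Acta2 in each ASPC_Pre cell against Myl9, Tpm2, Tpm1 and Cck in the same cell, all as log10(CPM + 1), with blue points for the 16 cells of batch 8_8 and orange points for the 44 cells of batch 9_1. Myl9 and Tpm1 run with Acta2 in both batches (rho 0.82 and 0.72 in 9_1), and Cck runs against it in 9_1 (rho -0.53).

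Genes of a mesenchymal identity were present throughout, and a smaller number set ASPC_Pre apart from IBA. Of 19 tested mesenchymal progenitor genes 5 were higher and 1 lower, where 7.21% of all genes tested were called higher and 3.58% lower. Ly6a, which encodes the stem cell antigen SCA-1, was at 418.01 and 805.7 CPM against 26.2, 262.2 and 80.9 (3.08 ± 0.49, adjusted p = 0.0079). Eng, the TGF-beta co-receptor endoglin, differed by 6.42 ± 0.87 (0.0045), the proteoglycan Dcn by 4.14 ± 0.46 (0.0045) and the limb mesenchyme factor Prrx1 by 1.12 ± 0.30 (0.044), beside Thy1. Col6a1, a chain of collagen VI, was lower (-2.01 ± 0.48, 0.031). Pdgfrb (1.43 ± 0.62, adjusted p = 0.16) and Col1a1 (0.84 ± 0.56, 0.35) were not called. Cd34, a surface marker of ASPCs in tissue, was counted in 5 of 16 and 12 of 44 cells, and Lum, a collagen-binding proteoglycan, in no ASPC_Pre cell.

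Elastic fibre genes, whose products assemble microfibrils and elastin, were higher in 5 of 15 tested and lower in none (7.21% and 3.58% of all genes tested). The 5 include the marker Mfap5, which was chosen with earlier results of these data known. Beside Mfap5 and Mfap2 these were Fbn1, the main microfibril protein (788.9 and 293.3 CPM, 1.55 ± 0.31, adjusted p = 0.026), Fbln5 (2.69 ± 0.45, 0.015) and Efemp1 (436.2 and 998.03 CPM, 3.42 ± 0.49, 0.0097). Fbn1 had an adjusted p of 0.099 without the ASPCs that held Y-linked counts. Lox, the enzyme that cross-links elastin and collagen, was at 4246 and 5048 CPM and just missed the threshold (2.33 ± 0.65, adjusted p = 0.050). Eln itself was counted in 0 of 16 and 2 of 44 cells. Fbn1, by contrast, was counted in 16 of 16 and 42 of 44 cells.

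Secreted factors differed from IBA in both directions, with 11 higher and 3 lower of 35 tested (7.21% and 3.58% of all genes tested). The 11 include the markers Cck and Tnfrsf11b, which were chosen with earlier results of these data known, so the count is no independent result. Gpx3, a secreted glutathione peroxidase, was at 522.5 and 2427 CPM against 5.00, 5.84 and 9.64 in IBA (8.23 ± 0.56, adjusted p = 0.00053). Over cells it ranged from 0 to 3037 CPM in batch 8_8 and from 151.9 to 10441 in 9_1. Sfrp1, a secreted Wnt modulator, was higher (230.3 and 505.8 CPM against 0, 5.24 and 3.60, adjusted p = 0.0039), whereas Sfrp2 was lower. The Wnt modulator Dkk2 was also higher (5.39 ± 0.65, 0.013, but 0.12 without ASPCs holding Y-linked counts and 0.13 without those holding EGFP). Its level was uneven, as 1 cell of batch 9_1 held 3665 CPM and the next highest 756.3. Growth factors and their binding proteins called higher were Fgf10 (2.89 ± 0.59, 0.042), Inhba (2.54 ± 0.63, 0.044), Igfbp4 (3.07 ± 0.73, 0.031) and Igfbp5, with the protease inhibitor Timp1 (1.35 ± 0.35, 0.041). The chemokine Cxcl1 was lower (-3.55 ± 0.76, 0.022). Of the 11 higher and 3 lower, 7 and 2 were called without ASPCs holding Y-linked counts, and 5 and 2 without those holding EGFP.

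The progenitor subsets known from subcutaneous fat were looked for by their markers, without clustering. Among Dpp4-type markers, Dpp4 itself was counted in 4 of 16 cells of batch 8_8 and 4 of 44 of 9_1 (25% and 9.09%), at no more than 29.1 CPM, and Pi16 in 0 and 5. In thinned cells Dpp4 was found in 20% (4.33 to 48.1) and 6.98% (1.46 to 19.1), against 0 of 45 IBA cells of batch 9_1. Other genes of that list were common. Sema3c, a secreted guidance protein, was found in 53.3% (26.6 to 78.7) and 83.7% (69.3 to 93.2) of thinned cells, against 8.89% of IBA cells in batch 9_1, and in 10 of 16 and 41 of 44 unthinned cells. Cd55, which limits complement, was found in 20% (4.33 to 48.1) and 58.1% (42.1 to 73) of thinned cells and in 4 of 16 and 29 of 44 unthinned cells. Against IBA, 3 of 9 tested genes of the list were higher, where 7.21% of all genes tested were. The 3 were Sema3c (6.36 ± 0.57, adjusted p = 0.0063), Anxa3 (1.27 ± 0.30, 0.032, and 0.069 without ASPCs holding Y-linked counts) and Cd55 (at least 1535-fold, 0.020). Members of the list thus ran from rare (Dpp4, Pi16) to common (Sema3c).

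Of the Icam1-type markers, Icam1, an adhesion molecule, was found in 33.3% (11.8 to 61.6) and 55.8% (39.9 to 70.9) of thinned cells of batches 8_8 and 9_1, and in 7 of 16 and 28 of 44 unthinned cells. Pparg, the nuclear receptor that drives adipogenesis, was found in 53.3% and 39.5% of thinned cells (9 of 16 and 26 of 44 unthinned). Cebpa, its partner transcription factor, was found in 60% (32.3 to 83.7) of thinned cells of batch 8_8 and in none of 43 in 9_1 (0 to 8.22), with 10 of 16 and 10 of 44 unthinned. Those 10 cells of batch 9_1 held at most 16.3 CPM. Peg3, an imprinted zinc finger gene, was found in 66.7% (38.4 to 88.2) and 25.6% (13.5 to 41.2), and 1 cell of batch 9_1 held 76.8% of its summed level there. Cxcl14, a chemokine, was found in 13.3% (1.66 to 40.5) and 53.5% (37.7 to 68.8), with 64.1% of its level in 1 cell of batch 9_1. These intervals are over cells of 1 batch and do not test a difference between batches. In the sums, the batch difference of Cebpa beyond that of the lines was -4.16 ± 3.80 (edgeR, adjusted p = 0.77). Icam1 (4.89 ± 0.63, adjusted p = 0.0039), Peg3 and Cxcl14 were higher than in IBA, 3 of 13 tested (7.21% of all genes tested), and none was called lower.

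The CD142-type markers gave no call in either direction over 9 tested genes, by the edgeR fit reported here (4 at an unadjusted p under 0.05) or DESeq2, while 1 gene was called higher with the newer edgeR fit, in thinned cells and without batch 9_1. F3, the coagulation factor III known as CD142, was found in 86.7% and 90.7% of thinned ASPC_Pre cells and in 84.4% of IBA cells of batch 9_1, and its sums were 846.5 and 799.95 CPM against 29.3, 393.9 and 494.5 (3.79 ± 1.41, adjusted p = 0.11). Within batches it ran from 0 through a median of 337.9 to 2249.9 CPM in 8_8 and through 434.9 to 3466 in 9_1, so it marked a range rather than a few cells. Other genes of the list were sparse: Fmo2 was found in 0 of 15 and 5 of 43 thinned cells, and Gdf10 in 0 and 6. Mgp, a matrix protein that inhibits calcification, was found in 40.0% (16.3 to 67.7) and 74.4% (58.8 to 86.5) and in 46.7% of IBA cells of batch 9_1.

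**Figure D4:**
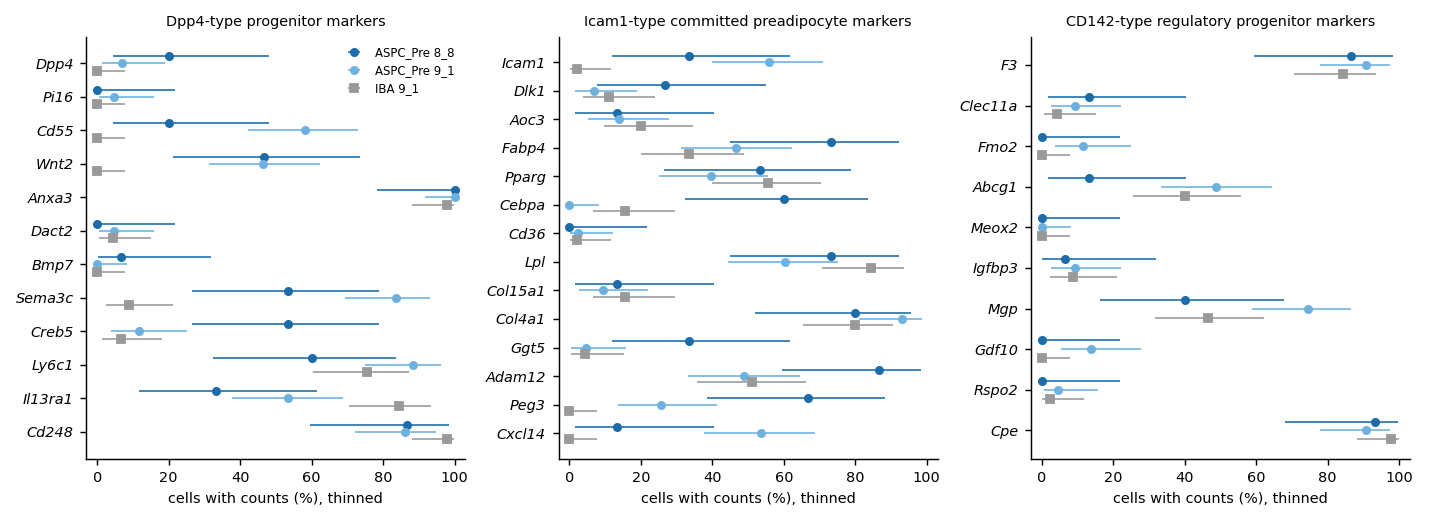
Share of cells with counts (%) of markers of the Dpp4-type, Icam1-type and CD142-type progenitors after thinning every cell to 100000 counts, for ASPC_Pre of batches 8_8 and 9_1 and IBA of batch 9_1, with exact binomial 95% intervals. F3 is found in 86.7%, 90.7% and 84.4% of the cells of the 3 groups, and Dpp4 in 20%, 6.98% and 0.

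Of 21 tested regulators of adipogenesis 3 were higher and 1 was lower, where 10.8% of all genes tested were called. Klf4 (4.26 ± 1.08, adjusted p = 0.047), Zfp467 (0.0086) and the non-canonical Wnt ligand Wnt5a (110.999 and 73.8 CPM against 2.08, 1.37 and 3.32, 5.85 ± 0.70, 0.0031) were higher. Wnt10b, a canonical Wnt ligand that restrains adipogenesis, was lower (0 and 0.0411 CPM against 3.54, 8.13 and 4.59, adjusted p = 0.049). Without ASPCs holding Y-linked counts, the adjusted p of Klf4 was 0.082 and that of Wnt10b 0.12. Pparg stood at 66.8 and 12.2 CPM in the sums (-0.71 ± 0.51, 0.41). None of 8 tested adipocyte genes and none of 5 thermogenic genes was called by edgeR (1 of each at an unadjusted p under 0.05) or DESeq2. Adipoq, Plin1, Cidec, Lep and Retn, which mark mature adipocytes, had no count in any of the 60 cells. Fabp4, an early adipocyte gene, stood at 61.9 and 15.98 CPM, beside 571.4 CPM in ASPC_Post of batch 9_1, a difference without a replicate.

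Some positional genes were called between the progenitors from subcutaneous fat and the line from interscapular fat. Zic1, a factor of dorsal trunk mesoderm, had no count in 60 ASPC_Pre cells and 19.4, 19.6 and 26.7 CPM in IBA (IBA at least 217.4-fold higher, adjusted p = 0.034), and Hoxa2, an anterior Hox gene, had none against 8.53, 14.1 and 10.5 CPM (at least 113.9-fold, 0.034). Without ASPCs holding Y-linked counts their adjusted p was 0.054 and 0.065, and that of Emx2 0.081. Emx2 (85.7 and 51.6 CPM, 3.72 ± 0.69, adjusted p = 0.034), the forelimb factor Tbx5 (at least 351.7-fold, 0.041, and 0.058 without ASPCs holding EGFP), Pax3 (0.013) and Hoxc10 (78.0 and 61.3 CPM, 3.98 ± 0.59, 0.020), a posterior Hox gene, were higher. In all, 3 of 14 tested position factors were higher and 1 lower, and of 28 Hox genes 1 was higher and 1 lower, a smaller share than the 10.8% called over all genes. Tbx15 (0.87 ± 0.42, 0.20) was not called.

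Against the average of the other 4 states, which include the macrophage line and share the ASPC_Pre and IBA sums with the comparison above, 3250 genes were called (24%), 19.8% higher and 4.21% lower. The higher genes were 82.4% of the calls, and 70.1% with DESeq2. All 5 marker genes were higher, Pdgfra included (adjusted p = 0.0036), as RAW_Mock cells of batch 9_1 held none of them. So were 19 of 19 tested mesenchymal progenitor genes, 15 of 15 contractile, 15 of 15 elastic fibre and 26 of 35 secreted factor genes, and 10 of 10 imprinted growth genes. This average includes RAW cells, in which such genes were near 0, and it does not set ASPC_Pre apart from ASPC_Post: the summed level of elastic fibre genes had a median of 13388 CPM over ASPC_Post cells and of 8922 over ASPC_Pre cells of batch 9_1. Scd1 (adjusted p = 0.0091) and Fabp4 (0.0096), which serve lipid synthesis and fatty acid binding, were the 2 of 8 adipocyte genes called higher, although Fabp4 was higher in the ASPC_Post sum (571.4 CPM) than in either ASPC_Pre sum. Of 9 tested macrophage genes 3 were lower, namely Cd68, Fcer1g and Cd14.

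Markers of other cell types were few. Endothelial Cdh5, Tie1 and Emcn, mural Kcnj8 and Higd1b, epithelial Krt8, Krt18 and Epcam, mesothelial Wt1 and Schwann cell Sox10 had no count in any of the 60 cells, and the leukocyte antigen Ptprc was counted in 1 cell. The summed level of 10 macrophage and leukocyte genes was 0 to 513.5 CPM (median 41.9) in batch 8_8 and 0 to 203.1 (median 41.98) in 9_1, against 4776 to 35389 in RAW_Mock cells of batch 9_1. Single members of these lists were nevertheless higher than in IBA. Tek, the angiopoietin receptor, was counted in 7 of 16 and 18 of 44 cells (16.5 and 13.3 CPM, adjusted p = 0.037). Krt19, an intermediate filament gene of epithelia and mesothelium, was counted in 15 of 16 and 29 of 44 cells (162 and 35.99 CPM, 4.12 ± 0.75, 0.033). Acta1, the skeletal muscle actin, was at 218.6 and 113.1 CPM (5.33 ± 1.12, 0.021, and 0.058 without ASPCs holding EGFP), in 11 and 26 cells. A few cells carried these sums: the median cell held 9.18 and 1.78 CPM, and 1 cell of each batch held 60.4% and 45.3% of the summed level. No tested mural (4), macrophage (9), Schwann (2) or osteochondral (2) gene was called by the edgeR fit reported here, with 2, 5, 0 and 0 at an unadjusted p under 0.05. DESeq2 and edgeR on thinned cells each called 1 mural and 1 macrophage gene lower, and the newer edgeR fit called 1 mural gene higher and 1 lower. Without 1 IBA cell that held macrophage counts, 2 macrophage genes and 1 Schwann gene were called higher.

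Few genes were called between the ASPC_Pre batches, and 4 of the 5 are known for roles in DNA replication or cell division. The difference between batches 9_1 and 8_8 in ASPC_Pre, beyond that in IBA, RAW_Mock and RAW_LPS, was called for 5 of 13564 genes (0.0369%), 1 higher (0.00737%) and 4 lower in 9_1 (0.0295%), with 1404 genes at an unadjusted p under 0.05. The 4 were Pclaf, a partner of the replication clamp (201.8 against 9.04 CPM, -4.10 ± 0.37, adjusted p = 0.029), the spindle gene Ckap2l (131 and 7.48, -3.81 ± 0.38, 0.040), Ccna2, which encodes cyclin A2 (217.1 and 17.6, -3.56 ± 0.38, 0.040), and Anln, the cytokinesis protein anillin (222.7 and 14.4, -3.54 ± 0.37, 0.040). EGFP was the gene higher in 9_1 (0 and 496.9 CPM, adjusted p = 0.024). ASPC_Pre has 1 sum per batch, whose spread is taken to be that of the lines. DESeq2 called 2.31% of the genes. No gene was called with IBA alone as the reference or without ASPCs holding Y-linked counts (adjusted p of these 5 then 0.051 to 0.080). Without ASPCs holding EGFP, 220 genes were called, 200 of them lower in 9_1. The fit without Y-linked counts left out 8 of 16 and 35 of 44 ASPC_Pre cells, and that without EGFP 37 of 44 in 9_1, so their sums hold few cells.

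A list of 20 proliferation genes, chosen after these values had been seen, summed to 135 to 8389 CPM per cell (median 3684) in batch 8_8 and to 2.13 to 3376 (median 504.8) in 9_1. The ranges overlapped, while the medians lay far apart. All 20 fitted below 0 in the batch term (median -2.54, against 0.07 for all genes), and 1 of them, Ccna2, was called. Mki67, the antigen Ki-67 of dividing cells, was counted in 13 of 16 and 9 of 44 cells, and in 80.0% (51.9 to 95.7) and 14% (5.30 to 27.9) of thinned cells. Cdkn2a, which encodes cell cycle inhibitors of the Ink4 and Arf kind, was counted in 0 of 16 and 32 of 44 cells, and in 0 (0 to 21.8) and 62.8% (46.7 to 77.0) of thinned cells. Cdkn2b stood at 50.5 and 292.6 CPM and Ccnd1 at 181 and 1007.9 in the batches, although no gene of the arrest list was called in the batch term (0 of 9 tested by edgeR, 3 at an unadjusted p under 0.05, and 1 called by DESeq2). Against IBA, Cdkn1a, a cyclin-dependent kinase inhibitor (456.1 and 1429.9 CPM, 1.68 ± 0.38, adjusted p = 0.028, and 0.083 without ASPCs holding Y-linked counts), and the D-type cyclin Ccnd2 (1313 and 2301 CPM, 3.55 ± 0.50, 0.0049) were higher. Of the proliferation genes, Pcna (-1.94 ± 0.45, 0.028), Mcm5 (-2.45 ± 0.58, 0.031), Mcm6 (-2.20 ± 0.55, 0.036) and Tyms (-2.01 ± 0.48, 0.032), all of DNA replication, were lower than in IBA, 4 of 20 (3.58% of all genes tested were lower). Summed over the 20 genes, IBA cells had a median of 5198 CPM in batch 8_8 and 3787 in 9_1. The medians of ASPC_Pre and IBA thus lay closer in batch 8_8 than in 9_1, where that of ASPC_Post was 517.75. Batch 9_1 also held the EGFP counts and less Xist, and the part of either in these differences was not tested.

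**Figure D5:**
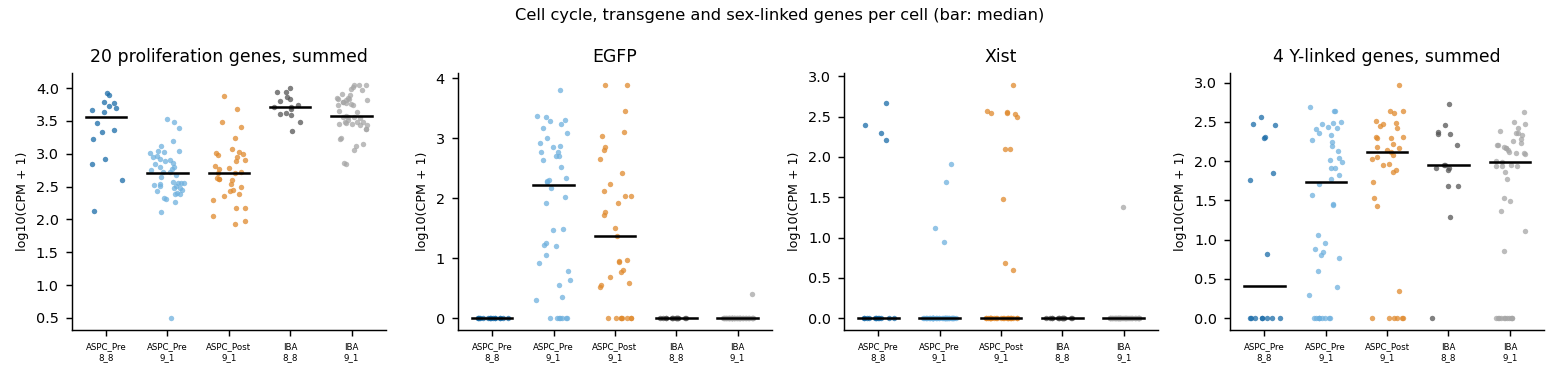
Level per cell, as log10(CPM + 1), of the sum of 20 proliferation genes, of EGFP, of Xist and of the sum of 4 Y-linked genes, with a point for each cell of ASPC_Pre (8_8 and 9_1), ASPC_Post (9_1) and IBA (8_8 and 9_1) and a bar at the median. EGFP is at 0 in all 16 ASPC_Pre cells of batch 8_8 and above 0 in 37 of 44 of batch 9_1, and the median of the proliferation sum is 3684 CPM in 8_8 and 504.8 in 9_1.

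Genes that varied most between cells were ranked within each batch by the squared coefficient of variation beyond the trend on mean level, over 6740 genes in batch 9_1 and 7061 in 8_8. In 9_1 the highest 20 included Igfbp2, Uchl1, Rab27b, Dkk2, Peg3, Acta1, Cxcl14, Vps54, Il1rn, Prss23, Sox9, Mfsd4b4, Gm26917, Ndc80, Polm, Hdac6, St6gal1 and Irf7. Some of them stood for 1 cell rather than a subset. Igfbp2, an IGF-binding protein, was counted in 10 of 44 cells, and 82.3% of its level came from 1 cell at 5566 CPM. Uchl1, a neuronal deubiquitinase, was counted in 37 cells (median 73.6 CPM, highest 5575) and ranked 3578 in batch 8_8. Acta1 (rank 6 in 9_1 and 8 in 8_8) and the non-coding Gm26917 (13 and 14) were variable in both batches. The top 100 genes of the batches shared 7, which is 7% of each. Actg2 ranked 66 in 9_1 and 55 in 8_8.

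Among the 4950 pairs of the 100 most variable genes of batch 9_1 the median rho was 0.10. The highest was between the mitochondrial genes mt-Rnr1 and mt-Nd4 (0.91 in 9_1 and 0.94 in 8_8), followed by the nuclear RNAs Gm26917 and Malat1 (0.75 and 0.74). Prss23, a secreted serine protease, and Tnc, the matrix protein tenascin-C, had a rho of 0.68 in 9_1, 0.63 in thinned cells and 0.84 in 8_8. Tnc also ran with Hspg2, the basement membrane proteoglycan perlecan (0.61, 0.68 thinned, and 0.72). These pairs thus held in cells of a batch that had not been used to choose them. Other pairs among the highest 10 were lower there, namely Fibin with Spp1 (0.66 and 0.33), R74862 with Tbc1d14 (0.65 and 0.07), Dennd2c with Ctnnal1 (0.63 and 0.26), Polm with Zcchc14 (0.62 and 0.18) and Vps54 with Tbc1d14 (0.60 and 0.20). Prss23 also followed the number of genes detected in a cell (rho 0.48 in 9_1 and 0.74 in 8_8), and the part of that in its pairs was not tested.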

How the data were processed

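Read 1 of 75 bp was aligned by the authors to GRCm38 (mm10) with STAR 2.6.1c after bcl2fastq 2.19.1, and uniquely mapped reads were counted per gene of Ensembl release 87 with HTSeq in union mode without regard to strand, so that overlapping, antisense and near-identical genes are uncertain. The deposited table holds raw counts of 30452 features in 1012 cells, without normalization. Of these columns, 458 were not used here, those of the Live-seq biopsies among them. Labels gave each cell its type, treatment, technique and batch. Spike-in dilution differed between batch scRNA and the other batches, and spike-ins were not used here.

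As in the study, 20 negative-control genes were left out, and so were genes of ribosomal proteins. The latter list, 86 genes, was rebuilt here from symbols and biotype and may differ from that of the study, and it kept the pseudogene Rps4l. Counts of the 554 whole cells were summed per batch and state to 12 sums, since cells are not replicates, and tested in R 4.3.3 with edgeR 4.0.16 (glmQLFit, glmQLFTest, TMM, prior count 0.125) with state and batch as terms. Genes entered with 2 or more counts in 15% or more of the cells in 1 state and after filterByExpr (minimum count 2, minimum proportion 0.05). The other fits used DESeq2 1.42.0, DESeq2-type size factors, no filter on low counts, the left-out genes kept, cells thinned to 100000 counts (2 ASPC_Pre cells were shallower and left out), the newer fit of edgeR 4, no batch term, IBA alone as the reference, and each batch left out. Batch is shared by the labels and pairs the sums, and deviations of ASPC_Pre correlated with those of IBA, RAW_Mock and RAW_LPS of the same batch (0.252, 0.138 and 0.107 across genes). Simulated data had 100 changed genes of each size, a fixed dispersion of 0.1 and no other difference between states or batches. On these, the fit recovered 74% of 4-fold and 100% of 16-fold changes between ASPC_Pre and IBA, and 11% and 92% in the batch term. Real genes can spread more between sums, so these shares do not limit how far an uncalled gene could differ.

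Variation between cells was ranked within batch by the residual of log10 squared coefficient of variation from a lowess curve, over genes with a mean of at least 20 CPM and counts in at least 5 cells. Shares carry exact (Clopper-Pearson) 95% intervals. Python 3.11.15 with numpy 2.4.6, pandas 2.3.3, scipy 1.17.1, statsmodels 0.14.6 and matplotlib 3.10.9 was used. Positions of genes were taken from the GENCODE vM21 annotation of GRCm38.

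The cells, marker genes and gene lists were chosen with earlier results of these data known. Genes named are the markers, members of fixed lists, the 10 called genes with the largest difference each way against IBA (same direction in both batches and at least 50 CPM in the higher state), those called in the batch term, the 20 most variable genes and the 10 pairs with the highest rho in batch 9_1. Some genes that this rule selects are not reported here. The proliferation list, the fits without 1 IBA cell with macrophage counts, without cells with over 50% of counts in left-out genes, without ASPCs holding Y-linked counts and without ASPCs holding EGFP were chosen after seeing the data. Genes of uneven level in 1 cell, Igfbp2 among them, were described after their values were seen.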

Additional observations from a re-analysis of the deposited data

Results flagged for a closer look

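Between batches, 5 genes differed more in ASPC_Pre than in the lines, by a test of the difference itself (edgeR). Going from batch 8_8 to 9_1, the cell division genes Pclaf (-4.10 on the log2 scale), Ckap2l (-3.81), Ccna2 (-3.56) and Anln (-3.54) were lower in ASPC_Pre beyond the shared difference of IBA, RAW_Mock and RAW_LPS. EGFP was higher, with a fitted value of 15.56 that depends on the prior count, since batch 8_8 held no EGFP count in ASPC_Pre. Pclaf stood at 296, 219.98 and 184 CPM in the 3 IBA sums. ASPC_Post of batch 9_1 stood at 11.7 CPM for Pclaf, 16.5 for Ccna2 and 40.2 for Anln.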

How the results depend on the processing

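Counts of calls are given here as a percent of the 13564 genes of the reported test. For ASPC_Pre against IBA, 10.8% were called with batch as the replicate block and 6.66% without the block. The newer edgeR fit called 18.7%, and leaving out each batch in turn gave 0.310% to 10.9%. The other alternatives, DESeq2 among them, kept the count within 1.5 times, as all did against the average of the other states. For the ASPC_Pre batch term, 0.0369% became 2.31% with DESeq2, 0.133% with the left-out genes kept, 0.206% in thinned cells, 0.170% with the newer edgeR fit, 0.00737% without batch scRNA, 0 with IBA alone as the reference (1575 genes at an unadjusted p under 0.05), 0 without ASPCs holding Y-linked counts (2444 at an unadjusted p under 0.05) and 1.62% without ASPCs holding EGFP, where EGFP itself was fitted at -1.03. The batch term could not be computed without the block or with batch 8_8 or 9_1 left out. The 7 genes shared by the top 100 of both batches became 12 in thinned cells, 26 with a minimum mean of 100 CPM and 22 with the left-out genes kept. Of the values for named genes against IBA over all alternatives, 81.5% stayed on their side of the threshold, 18.3% lost their call and 0.282% gained one. The cause of these shifts was not tested. Depth limits the sparse markers: counts in 0 of 16 cells allow up to 20.6% of such cells to have counts at this depth (exact binomial 95% limit), which sets no limit on cells that express the gene. With 2 ASPC_Pre sums, batch and any difference in animals or culture cannot be told apart, and the spread is mostly that of the lines.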

Other observations

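Of 10 tested imprinted growth genes, Peg3 (at least 1246-fold, adjusted p = 0.011), Ndn (186.8 and 226.2 CPM against 0, 15.7 and 7.07, adjusted p = 0.015) and Dcn were higher in ASPC_Pre than in IBA by edgeR, and none was lower. Over all genes tested, 7.21% were called higher. Ndn, which encodes the growth suppressor necdin, was counted in 15 of 16 cells of batch 8_8 and 43 of 44 of 9_1. Grb10, an adaptor that dampens insulin signalling, was at 315.996 and 216.1 CPM and was not called (0.71 ± 0.36, adjusted p = 0.24). H19 was counted in 4 of 16 and 5 of 44 cells and Igf2 in 2 and 3.

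Immediate early genes, which respond within minutes to handling and growth factors, gave 4 calls of 14 tested, where 10.8% of all genes were called: Dusp1 (1.83 ± 0.50, adjusted p = 0.046) and Nr4a1 (3.92 ± 1.09, 0.049) were higher than in IBA, and Junb (-1.73 ± 0.33, 0.015) and Ier2 (-1.65 ± 0.42, 0.037) were lower. Both higher calls were lost without ASPCs holding EGFP (Dusp1 0.11, Nr4a1 0.063), and those of Dusp1 (0.090) and Ier2 (0.056) without ASPCs holding Y-linked counts. Fos was not called (1.10 ± 0.78, 0.38) and ranged from 0 to 247.5 CPM over cells of batch 8_8 and from 0 to 380.6 over those of 9_1.

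Within batch 9_1 the EGFP level of a cell had a rho of -0.44 with Aldh1a1 (-0.50 in thinned cells), -0.45 with Prelp (-0.38), -0.39 with Mfap5 (-0.39) and 0.39 with Cnn1 (0.37). Over 44 cells of 1 batch these are descriptions without a test, and how the EGFP counts arose was not tested.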
